A study of Mus musculus with 8 samples.

Results

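The 10 genes described here are those of MHC class I antigen presentation, as listed by name for this account: the heavy chains H2-M2, H2-K1 and H2-D1, the light chain B2m, the peptide transporter genes Tap1 and Tap2, the loading factor Tapbp, the immunoproteasome subunits Psmb8 and Psmb9, and the transactivator Nlrc5. All 10 were found by gene symbol among the 54532 genes of the count table, and 8 of them were among the 9971 genes that passed the filter on low counts. Psmb8 and Nlrc5 did not pass it. The list was not chosen by a threshold on measured values, but it was drawn up with results of these libraries known.

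Bulk RNA-seq counts were available for 4 control libraries and 4 libraries treated with RANKL, all made from organoids of the mouse small intestine. RANKL is a cytokine of the TNF family that binds RANK. Organoids are epithelial structures grown from intestinal crypts in Matrigel with EGF, NOGGIN and R-spondin, without stroma or immune cells. The mouse lines of the study were on a C57BL/6J background, and the labels of these libraries give no further genotype, age or sex. How much RANKL was added, and for how long, was not given for these libraries in the sources used here. The labels do not say that the replicates came from separate cultures or animals, so the p-values measure only the spread between these samples, which may be technical.

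MHC class I molecules carry short peptides from inside the cell to its surface, where T cells and natural killer cells read them. Proteasomes cut proteins into peptides, and the immunoproteasome does so with exchanged catalytic subunits. The transporter TAP moves the peptides into the endoplasmic reticulum, where tapasin helps to load them onto a heavy chain bound to beta-2 microglobulin. H2-K1 and H2-D1 are the classical heavy chains of the mouse, expressed by most cell types, whereas the genes of the H2-Q, H2-T and H2-M series are mostly nonclassical and more restricted in where they are expressed. NF-κB factors and interferon response factors act on elements in the promoters of classical class I genes, and NLRC5 acts as a coactivator there.

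Library totals lay between 583663 and 7807298 counts. The libraries of control replicate 4 and RANKL replicate 1 were the shallowest, and 1 count in them was worth 1.72 and 1.61 CPM, where CPM is the number of counts per 1000000 counts of the library. The 5 genes listed as a check of the RANKL response (Nfkbia, Tnfaip3, Birc3, Relb and Nfkb2) all rose, where 13.6% of all tested genes did. Their median log2 fold change was 3.24. Tnfaip3 and Nfkb2 passed the filter on low counts only through their RANKL libraries. The study names some of the 5 genes for these libraries, so their rise is no independent evidence. Epcam, which defines epithelial cells, was between 981 and 1075 CPM in control and between 1067 and 1167 CPM in RANKL libraries. Ptprc, which defines leukocytes, had 1 count in all 8 libraries together. Of the 15 leukocyte markers, 7 were at 0 in every library and none passed the filter, and their summed level was 5.16 to 11.1 CPM in control and 4.82 to 14.5 CPM in RANKL libraries, most of it from Csf1r with 93 of 162 control counts and 30 of 56 RANKL counts.

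The promoters of 4 members are shown because the letters of 2 elements known from class I promoters could be searched in them. They are RefSeq sequences of GRCm38.p6, each of 300 bases, from 250 bases before to 50 bases after a RefSeq start of the gene, read along the gene. The table held 8 of the 10 members and no entry for Tap2 and Nlrc5. Capitals mark matches, on either strand, to the NF-κB consensus (in H2-M2 only to its looser form, given after the sequences) and, in B2m, also to the core of the interferon response element, GAAANNGAAA.
H2-K1 (chr17:34000298-34000597, minus strand): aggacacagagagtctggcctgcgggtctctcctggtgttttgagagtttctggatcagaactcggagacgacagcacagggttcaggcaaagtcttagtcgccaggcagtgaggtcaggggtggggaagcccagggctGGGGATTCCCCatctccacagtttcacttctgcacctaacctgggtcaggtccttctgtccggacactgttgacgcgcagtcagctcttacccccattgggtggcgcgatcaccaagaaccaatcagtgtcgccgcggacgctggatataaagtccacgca
H2-D1 (chr17:35262844-35263143, plus strand): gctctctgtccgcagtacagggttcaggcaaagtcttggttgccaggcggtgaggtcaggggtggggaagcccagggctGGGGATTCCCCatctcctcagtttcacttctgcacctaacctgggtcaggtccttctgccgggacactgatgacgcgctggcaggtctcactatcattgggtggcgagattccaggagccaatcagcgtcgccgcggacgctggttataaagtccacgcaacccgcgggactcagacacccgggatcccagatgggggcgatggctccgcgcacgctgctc
B2m (chr2:122147437-122147736, plus strand): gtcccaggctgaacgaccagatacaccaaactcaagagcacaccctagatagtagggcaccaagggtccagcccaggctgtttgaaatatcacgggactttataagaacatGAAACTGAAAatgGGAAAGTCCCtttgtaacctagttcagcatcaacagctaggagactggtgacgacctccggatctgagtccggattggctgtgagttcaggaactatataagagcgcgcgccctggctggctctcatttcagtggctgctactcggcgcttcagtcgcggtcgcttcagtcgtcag
H2-M2 (chr17:37483505-37483804, minus strand): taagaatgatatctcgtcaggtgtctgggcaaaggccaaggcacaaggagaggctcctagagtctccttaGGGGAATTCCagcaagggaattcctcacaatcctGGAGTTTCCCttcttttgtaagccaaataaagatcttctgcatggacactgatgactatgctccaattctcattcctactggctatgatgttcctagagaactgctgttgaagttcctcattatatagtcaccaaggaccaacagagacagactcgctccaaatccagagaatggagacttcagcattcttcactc

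The NF-κB consensus was searched with a purine at the fourth letter and pyrimidines at the sixth to the eighth. It matched in 3 of the 8 members, H2-K1, H2-D1 and B2m, and in 5.80% of the 32851 promoters in the table. A looser form that allows any base at the sixth letter, added after the data were seen, matched in the same 3 members and in H2-M2, and in 8.46% of all promoters. In H2-K1 and H2-D1 the capitals are the same 11 letters, in which 3 overlapping matches of the first form lie. They run from -111 to -101 in H2-K1 and from -171 to -161 in H2-D1, counted from the RefSeq start. The annotated gene H2-D1, with coordinates given below, begins at 35262730, before this window, so that the RefSeq start lies inside it. A second start of H2-K1 in the table moves the same letters to -125 to -115. In B2m the NF-κB match lies at -126 to -117 on the other strand, and the interferon core at -139 to -130. The interferon core was held by B2m alone among the 8 members, and by 3.44% of all promoters. The letters CCAAT, searched on both strands, were in 7 of the 8 members, all but Psmb8, and in 37.4% of all promoters. None of the matches overlapped one of another element. H2-M2 held CCAAT at -84 to -80 and the looser NF-κB form at -180 to -171 and, on the other strand, at -146 to -137. Tap1 and Psmb9 are transcribed away from each other from RefSeq starts 226 bases apart, so that their windows share 275 bases. In the annotation behind the coordinates given below, both genes share 212 exonic bases on opposite strands.

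RANKL-treated organoids had more class I mRNA than control organoids. The members that rose were the heavy chains H2-M2, H2-D1 and H2-K1, the light chain B2m, the loading factor Tapbp and the immunoproteasome subunit Psmb9. These were 6 of the 8 members tested, where 13.6% of all 9971 tested genes rose, at an adjusted p of at most 0.05 (edgeR quasi-likelihood test with Benjamini-Hochberg adjustment over all tested genes). No tested member fell, with 0 also at an unadjusted p under 0.05, by DESeq2 and by limma-voom, where 12.4% of all tested genes fell. The median log2 fold change was 0.72 over the 8 tested members and 0.00017 over all tested genes. In 5 of the 8 the lowest RANKL value exceeded the highest control value, which was so for 13.1% of all tested genes. H2-M2 and Psmb9 passed the filter on low counts only through their RANKL libraries, where they are high, so the counts and the median over the tested members are a description and no support. In bulk RNA a change in the number of cells that express a gene and a change in RNA per cell cannot be told apart.

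**Figure D1:**
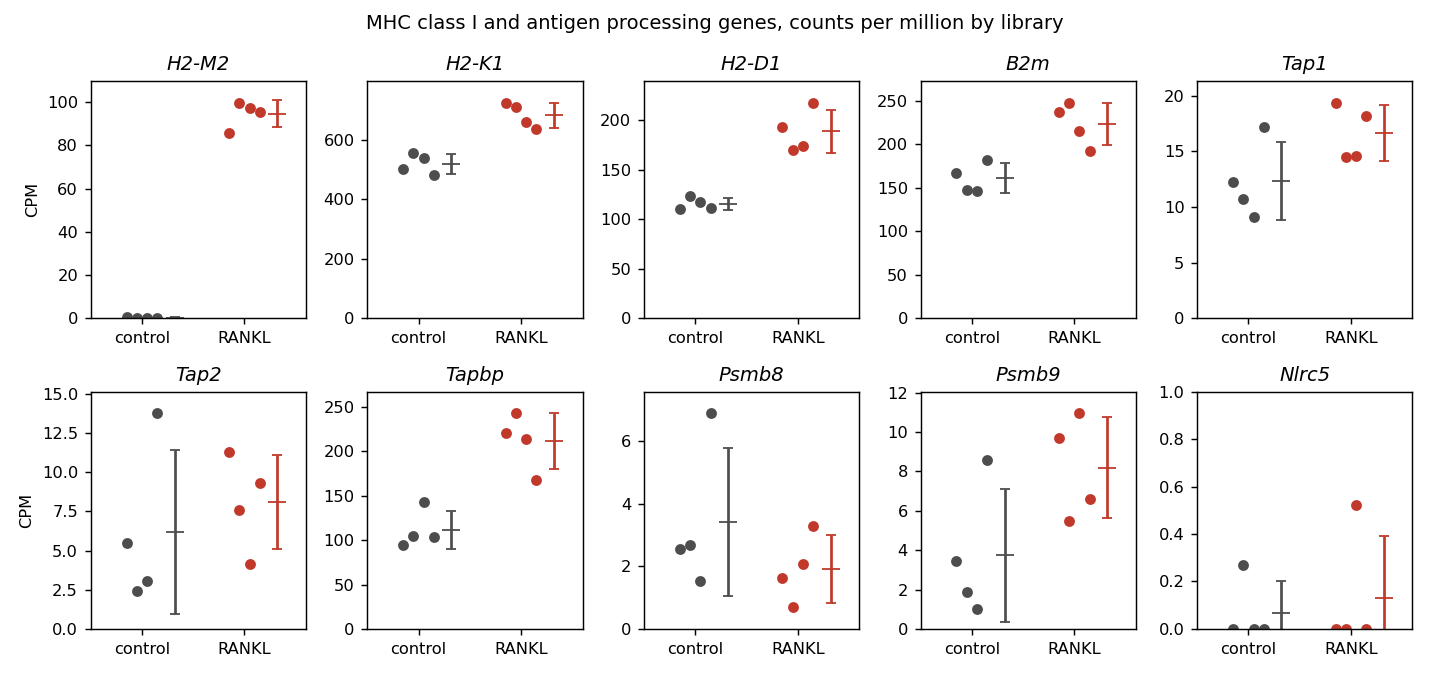
CPM of the 10 members in each library (points, replicates 1 to 4 from left to right), with the mean and SD of the 4 libraries of a group beside them, each panel on its own linear axis from 0. H2-M2 is near 0 in control and at 85.6 to 99.8 CPM in RANKL libraries, H2-K1, H2-D1, B2m and Tapbp are separated between groups, and the other 5 overlap.

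H2-M2 (ENSMUSG00000016283, chr17:37480851-37483552), a nonclassical heavy chain gene at one end of the MHC, was almost absent from control organoids and well counted in RANKL-treated ones. Its counts were 6, 1, 1 and 0 in control replicates 1 to 4, or 0.764, 0.268, 0.253 and 0 CPM, and 53, 145, 187 and 174 in RANKL replicates 1 to 4, or 85.6, 99.8, 97.5 and 95.6 CPM. The groups were far apart, and the RANKL libraries differed little from each other (94.6 ± 6.28 CPM, SD, n = 4, against 0.321 ± 0.320 CPM in control). This is a log2 fold change of 7.47 (SE 0.25, adjusted p = 1.95e-20). Of the 8 control counts, 6 were in replicate 1, and the log2 fold change without that library was 8.29. Among the 9964 tested genes with any control count, 3 had a larger fitted rise. Of the 50-base stretches within 300 bases of its annotated transcript ends, 4.18% also occurred in transcripts of other genes, and the 5 genes that shared the most were not heavy chains.

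Markers of M cells, the epithelial cells that take up particles over lymphoid follicles, moved in the same libraries. Of the 8 listed, 7 rose (Spib, Ccl20, Tnfaip2, Sox8, Ccl9, Anxa5 and Marcksl1), and Gp2, which marks mature M cells, had 0 counts in every library. Their summed level was 54.1 to 60.6 CPM in control and 1876 to 2132 CPM in RANKL libraries. Among all tested genes 13.6% rose, and of the 7 markers that rose all but Ccl9 and Anxa5 passed the filter only through their RANKL libraries. Their part in the rise of H2-M2 was not tested.

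The tested gene whose pattern over the 8 libraries was most like that of H2-M2 was C3, the central complement component. Its root mean square difference from H2-M2, in log2 CPM centred on each gene's mean, was 0.32. C3 was at 2.80, 0.805, 1.01 and 1.72 CPM in control replicates 1 to 4 and at 209.9, 201, 209 and 175 CPM in RANKL replicates 1 to 4. The member nearest to H2-M2 was Psmb9, at rank 389 of 9970 genes and with a difference of 2.78. This measure grows with the difference in fold change, so the distance restates the larger rise of H2-M2 and is no separate evidence.

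The classical heavy chains were abundant without RANKL and rose by less than 2-fold. H2-K1 (ENSMUSG00000061232, chr17:33996017-34000347) was at 504, 555, 539.5 and 483 CPM in control and at 726, 711, 659.7 and 639 CPM in RANKL replicates 1 to 4. The lowest RANKL library lay above the highest control library, with a log2 fold change of 0.39 (SE 0.09, adjusted p = 0.00212).

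H2-D1 (ENSMUSG00000073411, chr17:35262730-35267499) was at 110.4, 123, 117 and 112 CPM in control and at 194, 170.0, 174 and 218 CPM in RANKL replicates 1 to 4. These groups did not overlap either, and RANKL replicate 4 was the highest. H2-D1 rose by 0.70 on the log2 scale (SE 0.11, adjusted p = 9.25e-06). Within 300 bases of the transcript ends, 13.5% of the 50-base stretches of H2-D1 and 9.54% of those of H2-K1 occurred in other genes, first of all in each other, so a part of their counts is uncertain.

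Within a library, the count of H2-D1 per count of H2-K1 was 0.219, 0.222, 0.217 and 0.231 in control and 0.267, 0.239, 0.264 and 0.341 in RANKL replicates. The ratio was 1.25 times higher in RANKL libraries and higher in 4 of 4, with an exact two-sided permutation p of 0.0286, the smallest that 4 against 4 libraries can give. Adjusted over the 6 ratios compared, p was 0.0857, which did not pass 0.05.

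B2m (ENSMUSG00000060802, chr2:122147686-122153083), the light chain of class I molecules, lies on another chromosome than the heavy chains. It was at 167, 148, 146 and 182 CPM in control and at 237, 248, 215 and 192 CPM in RANKL replicates 1 to 4. The groups did not overlap, although control replicate 4 and RANKL replicate 4 were close. B2m rose by 0.49 on the log2 scale (SE 0.11, adjusted p = 0.00101). The counts of H2-K1 and H2-D1 together per count of B2m were 4.01 ± 0.643 in control and 3.94 ± 0.376 in RANKL libraries (SD, n = 4), with overlapping groups (exact two-sided permutation p = 0.857, adjusted p = 0.857).

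The members of peptide transport and loading differed in how clearly they changed. Tapbp (ENSMUSG00000024308, chr17:33915899-33929292) encodes tapasin, which bridges TAP and the heavy chain. It was at 95.1, 105, 143 and 103 CPM in control and at 221, 243, 214 and 168 CPM in RANKL replicates 1 to 4. The groups did not overlap, with control replicate 3 the highest control library. Tapbp rose by 0.90 on the log2 scale (SE 0.13, adjusted p = 2.37e-06). Tapbp shares 149 exonic bases with Zbtb22 on the same strand, so reads from that stretch cannot be assigned to either gene.

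Tap1 (ENSMUSG00000037321, chr17:34187553-34197225), one subunit of the transporter, was at 12.2, 10.7, 9.12 and 17.2 CPM in control and at 19.4, 14.5, 14.6 and 18.1 CPM in RANKL replicates 1 to 4. The groups overlapped through control replicate 4, which had 10 counts. The log2 fold change was 0.52 (SE 0.23), with an unadjusted p of 0.0319 and an adjusted p of 0.099. Tap2 (ENSMUSG00000024339, chr17:34203527-34216321), the other subunit, was at 5.47, 2.42, 3.04 and 13.8 CPM in control and at 11.3, 7.57, 4.17 and 9.34 CPM in RANKL replicates 1 to 4. Its highest value was in a control library with 8 counts, and its log2 fold change of 0.74 (SE 0.39, adjusted p = 0.164) did not pass the test. The difference of the group means was smaller than the SD of the control libraries for Tap2 and larger than either SD for Tap1.

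All 9 genes listed for peptide transport and loading, B2m included, were tested. Of them 3 rose (Tapbp, B2m and Tapbpl), where 13.6% of all tested genes did. Tapbpl, a tapasin-related peptide editor, was at 58.9 to 67.9 CPM in control and at 85.1 to 125 CPM in RANKL libraries (log2 fold change 0.65, SE 0.13, adjusted p = 0.000236). By edgeR, DESeq2 and limma-voom 0 fell, although Pdia3, a disulfide isomerase of the loading complex, had an unadjusted p under 0.05 with a log2 fold change of -0.23 (adjusted p = 0.0827). The general chaperones Calr and Canx had log2 fold changes of 0.05 and 0.01, and Erap1, which trims peptides, one of 0.30, none past the threshold. The median over the list was 0.49.

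Psmb9 (ENSMUSG00000096727, chr17:34181987-34187764), a catalytic subunit of the immunoproteasome, was low. Its counts were 27, 7, 4 and 5 in control and 6, 8, 21 and 12 in RANKL replicates 1 to 4, or 3.44, 1.88, 1.01 and 8.60 CPM against 9.69, 5.51, 10.95 and 6.59 CPM. The groups overlapped because of control replicate 4, where 5 counts made 8.60 CPM. The log2 fold change was 1.59 (SE 0.40, adjusted p = 0.00299), but the exact two-sided permutation test on CPM, which weights all libraries alike, gave p = 0.0857. Without the 2 shallowest libraries, an alternative chosen after seeing the data, the log2 fold change was 1.73 (adjusted p = 0.00352).

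Psmb8 (ENSMUSG00000024338, chr17:34197721-34201454), a second immunoproteasome subunit, had 20, 10, 6 and 4 counts in control and 1, 1, 4 and 6 counts in RANKL replicates 1 to 4. Its level was 3.41 ± 2.37 CPM in control and 1.92 ± 1.08 CPM in RANKL libraries (SD, n = 4), and the groups overlapped. Fitted without the filter on low counts, its log2 fold change was -0.36 (SE 0.57, adjusted p = 0.725). In that fit the median log2 fold change over all genes was -0.107, against 0.00017 in the main fit.

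Of the 6 genes listed for the immunoproteasome and its activator, 5 were tested. Of these, 3 rose (Psmb9, Psmb10 and Psme2), where 13.6% of all tested genes did. Psme2, like Psmb9, passed the filter only through its RANKL libraries. Psmb10, the third exchanged subunit, was at 98.0 to 112 CPM in control and at 123 to 152 CPM in RANKL libraries (log2 fold change 0.41, SE 0.11, adjusted p = 0.00533). Psme2, a subunit of the PA28 activator, was at 2.28 to 10.32 CPM in control and at 11.3 to 25.8 CPM in RANKL libraries (log2 fold change 1.61, SE 0.30, adjusted p = 0.000144). Its partner Psme1 had a log2 fold change of 0.30 (SE 0.13, adjusted p = 0.0856). The count of Psme2 per count of Psme1 was 0.0958 ± 0.0634 in control and 0.185 ± 0.0733 in RANKL libraries, with overlapping groups (exact two-sided permutation p = 0.143, adjusted p = 0.171).

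None of the 3 constitutive catalytic subunits that the immunoproteasome subunits replace passed the edgeR test, with 1 at an unadjusted p under 0.05, 1 by DESeq2 and 1 by limma-voom. Psmb5 and Psmb7 had log2 fold changes of -0.10 (SE 0.20) and 0.08 (SE 0.15). Psmb6, which Psmb9 replaces, had one of 0.24 (SE 0.09, adjusted p = 0.0578). The counts of Psmb8, Psmb9 and Psmb10 together, per count of the constitutive 3, were 0.216 ± 0.0178 in control and 0.253 ± 0.0214 in RANKL libraries, with overlapping groups (exact two-sided permutation p = 0.0857, adjusted p = 0.129).

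**Figure D2:**
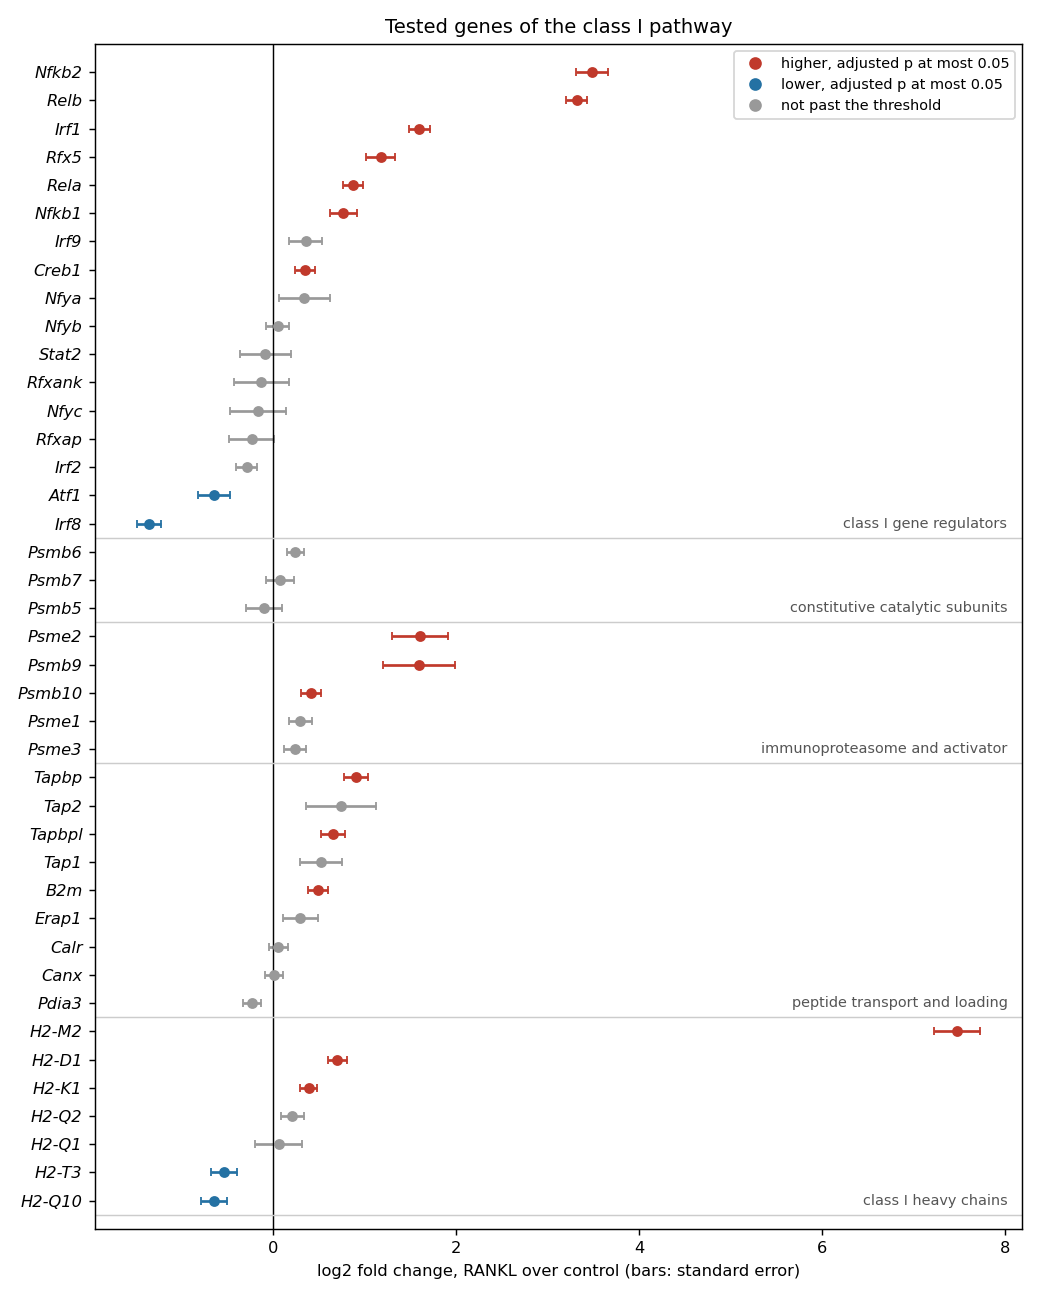
Log2 fold changes (RANKL over control, bars are standard errors) of tested genes from 5 lists of the class I pathway. H2-M2 at 7.47 is far from the other heavy chains, Nfkb2 and Relb lead the regulators at 3.48 and 3.32, and H2-Q10, H2-T3, Irf8 and Atf1 are the genes that fell.

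Not every heavy chain rose. Of the 26 heavy chain genes listed, 10 had 0 counts in every library and 7 were tested. Of these 7, 3 rose and 2 fell, where 13.6% and 12.4% of all tested genes did. One of the 3, H2-M2, passed the filter on low counts only through its RANKL libraries. The median log2 fold change was 0.21. H2-Q10, best known as a secreted class I molecule, was at 73.2, 76.2, 76.8 and 63.6 CPM in control and at 42.0, 64.0, 41.7 and 40.6 CPM in RANKL replicates 1 to 4. RANKL replicate 2 lay within the control values, and the log2 fold change was -0.65 (SE 0.14, adjusted p = 0.000987).

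H2-T3, which encodes the thymus leukaemia antigen of the intestinal epithelium, was at 56.4, 60.9, 64.6 and 70.5 CPM in control and at 43.6, 35.8, 50.6 and 39.5 CPM in RANKL replicates 1 to 4. Its highest RANKL value was below its lowest control value, as for 11.5% of all tested genes. The log2 fold change was -0.54 (SE 0.14, adjusted p = 0.00512). H2-Q2 and H2-Q1 had log2 fold changes of 0.21 (SE 0.12, adjusted p = 0.225) and 0.06 (SE 0.25, adjusted p = 0.897). Near-identical copies limit the counts of these genes, since 21.5% of the 50-base stretches at the ends of H2-Q1 transcripts and 11.8% of those of H2-Q2 occurred in other genes, whereas none of those of H2-Q10 and H2-T3 did.

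The sum over all 26 heavy chains was 860 ± 45.5 CPM in control and 1162 ± 40.2 CPM in RANKL libraries (SD, n = 4), and the groups did not overlap (exact two-sided permutation p = 0.0286). Without H2-M2 the sums were 859.8 ± 45.5 and 1067 ± 44.7 CPM, again without overlap. H2-M2 made up 0 to 0.092% of heavy chain counts in control libraries and 7.07, 8.49, 8.71 and 8.38% in RANKL replicates 1 to 4. The share of H2-Q10 was 8.42 ± 0.404% in control and 4.05 ± 0.936% in RANKL libraries, and that of H2-T3 was 7.36 ± 0.930% and 3.66 ± 0.622%. The share of H2-D1 was 13.5 ± 0.302% and 16.3 ± 1.99%. The shares of a library add up to its total and are not independent of each other. These 4 shares did not overlap between the groups (exact two-sided permutation p = 0.0286, adjusted p = 0.0571 over the 8 shares compared). The share of H2-K1 was 60.5 ± 0.657% and 58.9 ± 2.01%, with overlapping groups (exact two-sided permutation p = 0.171).

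**Figure D3:**
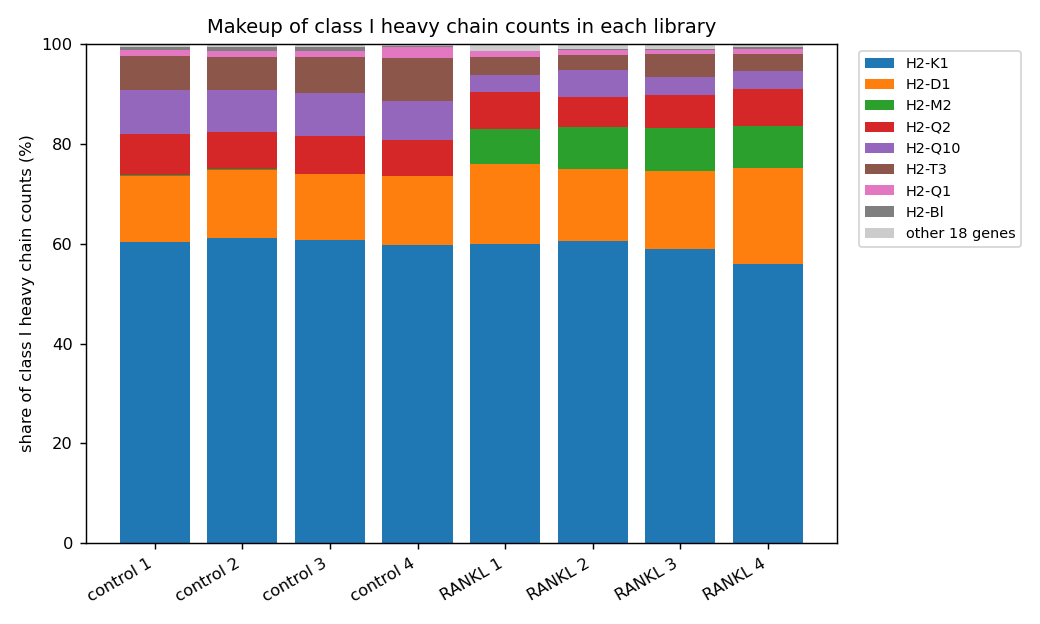
Share of each gene among the counts of the 26 listed class I heavy chains, in percent, by library (stacked bars). H2-M2 is hardly visible in the 4 control libraries and takes 7.07 to 8.71% in the RANKL libraries, where H2-Q10 and H2-T3 take less.

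Among the 12 class I-like molecules outside the MHC that the table held, 5 had 0 counts and 1 was tested. Fcgrt, the neonatal Fc receptor, had a log2 fold change of 0.13 (SE 0.27, adjusted p = 0.768). The count of 0 in each direction was the same at an unadjusted p under 0.05, by DESeq2 and by limma-voom.

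Nlrc5 (ENSMUSG00000074151, chr8:94434356-94527272), the coactivator of class I genes, had 1 count in control replicate 2, 1 count in RANKL replicate 3 and 0 in the other libraries. Where no read was counted up to 3 counts remain possible, for counting error only, which over a whole group is 0.186 CPM in control and 0.516 CPM in RANKL libraries. Nlrc5 had 1 count in each group, so this limit for 0 counts gives only a scale for it. The libraries say only that Nlrc5 was too low in both groups to be compared.

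All other listed regulators of class I genes had more counts than Nlrc5. Some were still low, with means over all libraries of 7.06 CPM for Nfyc, 7.15 CPM for Rfxank and 8.73 CPM for Stat2. Of the 19 listed, 18 were tested, with a median log2 fold change of 0.27. Of these 18, 7 rose and 2 fell, where 13.6% and 12.4% of all tested genes did. One of the 7, Nfkb2, passed the filter on low counts only through its RANKL libraries. The largest rises were in the NF-κB subunits of the alternative pathway. Nfkb2 was at 5.16 to 12.7 CPM in control and at 84.0 to 128 CPM in RANKL libraries (log2 fold change 3.48, SE 0.18), and Relb was at 36.1 to 42.6 CPM and at 358 to 455 CPM (log2 fold change 3.32, SE 0.11). The subunit Rela, of the classical pathway, rose by 0.87 on the log2 scale (SE 0.11, adjusted p = 4.25e-07).

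Irf1, an interferon response factor that acts on class I promoters, was at 43.0 to 46.6 CPM in control and at 130 to 149 CPM in RANKL libraries (log2 fold change 1.59, SE 0.11, adjusted p = 2.24e-12). Rfx5, a subunit of the RFX complex on MHC promoters, rose by 1.18 (SE 0.16, adjusted p = 9.07e-07). Irf8 went the other way, at 92.3 to 109 CPM in control and 34.4 to 46.8 CPM in RANKL libraries (log2 fold change -1.35, SE 0.13, adjusted p = 1.9e-09). Atf1 also fell and Nfkb1 and Creb1 rose, these 3 named after their values were seen. Stat2 and Irf9, which carry interferon signals to the nucleus, had log2 fold changes of -0.09 and 0.36, neither past the threshold.

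Genes that interferons induce were mostly near 0. Of the 25 listed, 3 were tested and 2 rose, where 13.6% of all tested genes did, but both passed the filter on low counts only through their RANKL libraries. Socs1, a feedback inhibitor of cytokine signalling, was at 0 to 2.53 CPM in control and at 14.1 to 27.4 CPM in RANKL libraries (log2 fold change 3.50, SE 0.33, adjusted p = 9.71e-10). Irf7 rose by 0.93 (SE 0.32, adjusted p = 0.0284), and its adjusted p was 0.0529, 0.0902 and 0.185 when control replicate 3, RANKL replicate 2 or RANKL replicate 3 was left out and 0.0967 by DESeq2. Bst2 had a log2 fold change of 0.00 (SE 0.24). The summed level of the list was 25.3 to 34.6 CPM in control and 50.1 to 69.4 CPM in RANKL libraries.

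Class II genes, which present peptides from outside the cell, were also low. Of the 12 listed, 3 had 0 counts and 2 were tested. Cd74, the invariant chain, named after its values were seen, passed the filter only through its RANKL libraries and had 7, 3, 0 and 1 counts in control and 4, 13, 13 and 14 counts in RANKL replicates 1 to 4 (log2 fold change 3.39, SE 0.46, adjusted p = 1.07e-06). Ctss, a protease of the class II pathway, had a log2 fold change of 0.45 (adjusted p = 0.0507). The class II chains H2-Aa, H2-Ab1 and H2-Eb1 had 3, 15 and 5 control counts and 3, 3 and 5 RANKL counts.

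Among the 13 ligands for T cells and natural killer cells that the table held, 4 were tested and 3 rose, where 13.6% of all tested genes did. Icam1 passed the filter on low counts only through its RANKL libraries. Nectin2 was at 208 to 234 CPM in control and at 551 to 615 CPM in RANKL libraries (log2 fold change 1.37, SE 0.09, adjusted p = 8.64e-13). Icam1, an adhesion molecule for leukocytes, had 0 counts in every control library and 22, 38, 49 and 56 in RANKL replicates 1 to 4, at least 152-fold higher against a limit of 3 counts over the control group. Pvr had an adjusted p of 0.0499 (log2 fold change 0.59, SE 0.22) and did not pass in 10 of its 15 alternative fits. This p was 0.111 by DESeq2 and up to 0.233 when control replicates 1 or 4 or RANKL replicates 1, 2 or 3 were left out in turn. Cd274, the inhibitory ligand PD-L1, had 8 control counts and 1 RANKL count.

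Most members lie in the MHC on chromosome 17, so their neighbours were compared. Between H2-K1 and H2-M2, the outermost listed heavy chains (chr17:33996017-37483552, GRCm38), 68 of 178 coding genes were tested. Apart from heavy chains and the members Psmb9, Tap1 and Tap2, 58 other genes were tested, of which 8 rose and 1 fell, or 13.8% and 1.72%, with a median log2 fold change of 0.06. Over all tested genes these shares were 13.6% and 12.4%, so fewer of the neighbours fell, a difference that was not tested. These 8 were Brd2, Agpat1, Vars, Tnf, Ddr1, Ier3, Ppp1r11 and Ubd, named after their values were seen. Tnf and Ubd reached the level of the filter on low counts, 5.39 CPM, only in RANKL libraries. The share of neighbours that rose is therefore a description and no support.

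Within this stretch, the tested gene next to H2-M2 was Ubd, which encodes the ubiquitin-like protein FAT10, a tag for proteasomal degradation. Ubd ends at 37196095 and H2-M2 begins at 37480851. Genes beyond H2-M2, the edge of the stretch, were not compared. Ubd had 0 counts in the 4 control libraries and 8, 25, 24 and 19 counts in RANKL replicates 1 to 4, at least 70.2-fold higher against a limit of 3 counts over the control group. Tnf, a cytokine gene in the middle of the stretch, had 8, 2, 2 and 1 counts in control and 4, 14, 19 and 18 in RANKL replicates 1 to 4 (log2 fold change 3.48, SE 0.39, adjusted p = 3.78e-08).

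**Figure D4:**
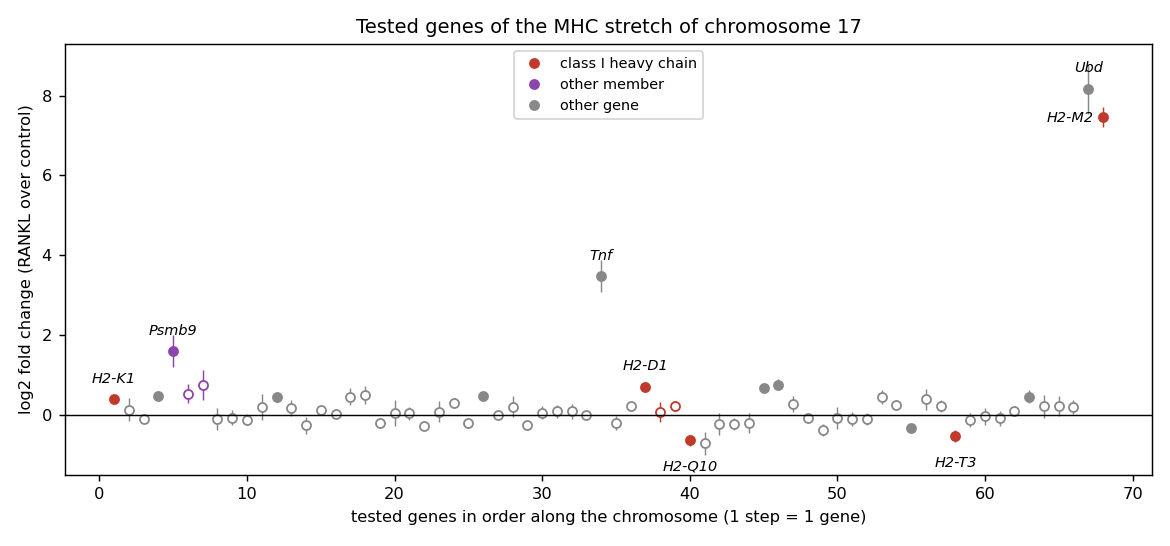
Log2 fold change (RANKL over control, bars are standard errors) of the 68 tested genes between H2-K1 and H2-M2, in their order along the chromosome, with filled points for an adjusted p of at most 0.05. Most genes are near 0, H2-M2 and Ubd, next to it in this order, are at the right end, and the plotted value of Ubd is no bound since its control counts are 0.

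The closest genes of the other tested members lay at differences from 0.046 to 0.37, where that of H2-M2 was at 0.32. Those of Tap2 and Psmb9, members with few counts, were the farthest. By the same measure, the nearest gene to H2-K1 was B4galt1 at 0.052 and to H2-D1 was Tpm3 at 0.046. The nearest gene to B2m was Mrpl17 at 0.081, to Tap1 Pls1 at 0.084, to Tap2 Fam149b at 0.37, to Tapbp Ncoa3 at 0.13 and to Psmb9 Rab31 at 0.31. The nearest other member stood at ranks from 34 (Tap1 for Tap2) to 469 (B2m for H2-K1) among 9970 genes, so no member had another member as its closest gene.

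Epithelial and stromal markers gave the following values beside these results. Of the 8 epithelial markers, 0 rose by edgeR, at an unadjusted p under 0.05, by DESeq2 and by limma-voom, and 3 fell (Krt18, Krt19 and Cldn7). Among all tested genes 13.6% rose and 12.4% fell. The summed level of the 8 epithelial markers was 7059 to 8209 CPM in control and 6725 to 7326 CPM in RANKL libraries. Of the 10 stromal and endothelial markers, 3 were at 0 in every library and Pdgfrb alone was tested, having passed the filter only through its RANKL libraries, with a log2 fold change of 2.53 (SE 0.30, adjusted p = 6.97e-08). The sum of this list was 4.56 to 12.0 CPM in control and 17.9 to 26.1 CPM in RANKL libraries. It includes Pdgfrb, so it does not by itself show a rise of the other markers. The part of these markers in the changes of the members was not tested.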

How the data were processed

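RNA of 8 organoid libraries, 4 control and 4 RANKL-treated, was sequenced from the 3′ end (QuantSeq forward kit, single reads of 50 bases). The authors trimmed reads with BBDuk, removed abundant sequences with bowtie2, aligned to GRCm38 (mm10 in the submitters' processing notes) with STAR and counted reads on Ensembl release 94 genes with featureCounts, using the strand. The deposited values are raw counts per gene, without normalization. A 3′ count does not scale with transcript length, and PCR copies cannot be told from molecules.

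Counts were tested with edgeR 4.0.16 (TMM, its low-count filter, quasi-likelihood test, Benjamini-Hochberg over 9971 genes, threshold 0.05) in R 4.3.3, after a check on simulated counts. CPM use TMM library sizes, and the standard error is the log2 fold change divided by the square root of F. Single values were compared by exact two-sided permutation over 70 assignments. Centred log2 CPM used a prior count of 2. Alternatives used DESeq2 1.42.0, limma 3.58.1, other scalings and filters, a replicate block and left-out libraries. Coordinates and transcripts are from GENCODE M21 on GRCm38, not the authors' annotation release, matched by identifier for 54495 of 54532 genes. Tables were made with Python 3.11.15, pandas 2.3.3 and SciPy 1.17.1.

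Beyond the 10 members, named genes are up to 6 called genes per pathway list at a mean of at least 5 CPM, the constitutive proteasome subunits, nearest genes and markers. Members and lists were chosen with earlier results of these data known. The 12 pairs of libraries within a group differed by more than counting noise (chi-square per degree of freedom of 1.25 to 15.4), and none were merged. One gene of the regulator list is counted in its list but not reported here.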

Additional observations from a re-analysis of the deposited data

Results flagged for a closer look

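Values were flagged where 1 library of a group of 4 lay far from the other three relative to the range of its group. Of 63 groups looked at 5 were flagged, and chance flags about 1 in 20. H2-Q10 was at 64.01 CPM in RANKL replicate 2, where the next RANKL library was at 41.98 CPM, and without that library its log2 fold change was -0.84. Nectin2 was at 208.3 CPM in control replicate 3, below the next control library at 232.2 CPM. The counts of Psmb8, Psmb9 and Psmb10 per count of the constitutive subunits were 0.2426 in control replicate 3, above the next control library at 0.2088. Nlrc5 was flagged at 0.2683 CPM in control replicate 2 and at 0.5215 CPM in RANKL replicate 3, each of which is a single count beside zeros.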

How the results depend on the processing

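Each of the 8 tested members stayed on its side of the threshold with the same direction in all 125 alternative fits made for them, and of 250 fits for the other named genes, 16 lost the call, all of Irf7 or Pvr. The number of members that rose was 6 throughout, save 2 (H2-M2 and Psmb9) at a fold of at least 2 and 4 where at least 10 counts in every library were required, since H2-M2, Psmb9 and Tap2 could not then be tested. Over all tested genes, 1355 rose and 1232 fell. At a fold of at least 2 these were 438 and 139, at an adjusted p of 0.01 the falls were 707, and with each library left out the counts ran from 1039 to 1367 and from 814 to 1234, lowest without RANKL replicate 4. Psmb6 passed with library totals alone and by DESeq2 (1 constitutive subunit each), Ctss passed with library totals alone (2 class II genes), and Irf7 did not pass by DESeq2 (1 interferon-stimulated gene). Libraries with the same replicate number showed little shared deviation (correlations from -0.033 to 0.10). With 4 libraries per group, this cannot exclude that the numbers pair them. A fit with the replicate block gave 1362 rises and 1248 falls, and 6 members that rose. Without the 2 shallowest libraries, chosen after seeing the data, 6 members rose, with H2-K1 at 0.33 (adjusted p = 0.0327). Depth limits Tap1, Tap2, Psmb8, Psmb9 and Nlrc5, for which 1 count in the shallowest library was worth 1.72 CPM.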

Other observations

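Some genes of the lists had too few counts to be tested but did not overlap between the groups, and they are named after their values were seen. Cxcl10, a chemokine that attracts T cells, had 0, 1, 0 and 0 counts in control and 7, 8, 9 and 15 counts in RANKL replicates 1 to 4. H2-Q7, a nonclassical heavy chain gene, had 4, 2, 1 and 0 counts in control and 5, 9, 6 and 7 counts in RANKL replicates 1 to 4, or up to 0.537 CPM against 3.13 to 8.07 CPM. H2-DMa, of the class II peptide exchange factor, had 7, 5, 4 and 0 counts in control and 1, 2, 4 and 3 counts in RANKL replicates 1 to 4. In the shallowest control library, where all 3 genes had 0 counts, 3 counts remain possible, which is 5.14 CPM. This is more than any value of H2-DMa. It also exceeds the RANKL values of 3.13 and 3.84 CPM of H2-Q7 and that of 4.69 CPM of Cxcl10. The lack of overlap with that library is therefore within counting error. This limit of 1 library does not cover the difference between the whole groups, which was not tested. For H2-Q7 the group means were 0.325 CPM in control and 5.31 CPM in RANKL libraries.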
